A study of Mus musculus with 8 samples.

Results

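The 4T1 line, derived from a mammary carcinoma of a BALB/c mouse, forms lung metastases after transplantation, and bisulfite sequencing of it gave a methylation level at 136069 positions, called sites, in 8 samples. A level is the fraction of calls at a site that were methylated, written here as a percent. The sites described here numbered 2187 (1.61% of all) and were chosen by their levels in the lung metastases. The mean of the 3 lung metastases labelled MFP was above 20%, and the lowest of the 3 lung metastases labelled TVI was at least 20 percentage points above the highest MFP metastasis. A gap of that size at any MFP level was present at 2.33% of all sites, and TVI levels above all MFP levels by any margin at 17.9%. A site could meet this rule only where no MFP metastasis was above 80%, which left 18455 sites that could be chosen, and 11.9% of those were. The levels in MFP and TVI metastases therefore chose the sites, and the contrast between them is given as a description. The rule did not use the 2 primary mammary tumors, also labelled MFP.

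All 8 samples carry the labels of the same cell line and strain. The labels give no meaning for MFP and TVI, no treatment, no animal and no age, and it is not stated that the replicates are separate animals. The p-values below rest on the variation among these replicates, and that variation may be technical. A level in bulk DNA averages over all cells of a sample. A change in the share of host or tumor cells and a change of methylation within the tumor cells cannot be told apart. Of 29 marker genes of lung epithelium, endothelium, leukocytes, fibroblasts and mammary epithelium, 0 had a start that could be placed among the sites, so the labelled tissue was not checked. The table gives no coverage, and the depth behind each value is unknown.

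Cytosine methylation in mammals is placed mostly on CpG dinucleotides, where DNMT3A and DNMT3B add it and DNMT1 copies it to the new strand after replication. A single DNA copy is either methylated or not at a given position, so an intermediate level in bulk DNA means that the copies in the sample were mixed, between cells or between alleles. CpG-rich promoters are usually free of methylation and most other CpGs are methylated, and intermediate levels are found at the edges of unmethylated islands, at some enhancers and at imprinted genes.

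The sequences below show where such sites lay near gene starts. The coordinates of the table do not follow GRCm38.p6, so gene starts were placed by matching the spacing of CpGs in RefSeq promoter sequences to the spacing of the listed sites. This placed 244 starts of 220 genes, a small part of all genes. Each line holds the 250 bases before a start, 5′ to 3′ along the gene, from RefSeq's mouse build GRCm38.p6, a C57BL/6J reference and not the BALB/c sequence of the samples. The match took in all 12 CpGs of the window for Hoxa10, all 23 for Tubgcp6, all 6 for Cd63 and 8 of 9 for Tjp3, the last 2 genes at the offset of a neighbouring start. The capitals mark the CpGs that were chosen sites, and the position given is that of the sequence in GRCm38.p6. The 4 were chosen because each has chosen sites beside sites of another level: Hoxa10 (chr6:52240855-52241104, minus strand), Tubgcp6 (chr15:89123151-89123400, minus strand), Cd63 (chr10:128909095-128909344, plus strand) and Tjp3 (chr10:81291268-81291517, minus strand).
Hoxa10: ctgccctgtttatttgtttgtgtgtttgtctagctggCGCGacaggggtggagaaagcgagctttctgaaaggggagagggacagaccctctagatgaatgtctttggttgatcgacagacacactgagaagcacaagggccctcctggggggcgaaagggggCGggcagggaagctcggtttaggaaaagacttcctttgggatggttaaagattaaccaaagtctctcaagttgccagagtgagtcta
Tubgcp6: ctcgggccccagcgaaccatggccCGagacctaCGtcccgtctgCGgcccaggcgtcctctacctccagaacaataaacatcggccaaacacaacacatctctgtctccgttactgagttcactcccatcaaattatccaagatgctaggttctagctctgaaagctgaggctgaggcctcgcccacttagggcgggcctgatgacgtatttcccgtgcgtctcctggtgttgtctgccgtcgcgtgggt
Cd63: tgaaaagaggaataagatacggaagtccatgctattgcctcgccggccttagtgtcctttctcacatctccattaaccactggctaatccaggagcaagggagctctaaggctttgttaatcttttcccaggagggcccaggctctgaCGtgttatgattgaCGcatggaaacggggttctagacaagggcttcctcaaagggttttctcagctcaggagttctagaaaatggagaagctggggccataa
Tjp3: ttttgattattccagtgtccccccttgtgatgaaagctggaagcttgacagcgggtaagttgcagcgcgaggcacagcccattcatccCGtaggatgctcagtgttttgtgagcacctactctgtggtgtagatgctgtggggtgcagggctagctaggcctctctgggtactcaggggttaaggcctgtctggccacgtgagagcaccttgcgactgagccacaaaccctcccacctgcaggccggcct

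In means over the chosen sites, samples of a group lay close together, while the rule itself set the difference between TVI and MFP metastases. At single sites, the highest and lowest sample differed by a median of 6.88 points in the MFP and 7.22 points in the TVI metastases. Averaged over the 2187 sites, the tumors were at 40.7% and 40.8%, and the MFP metastases lay between 40.6% and 40.9%. TVI metastases 1, 2 and 3 stood at 74.1%, 79.5% and 77.7%. The group means were 40.8% ± 0.0509 in tumors (SD, n = 2), 40.8% ± 0.141 in the MFP (SD, n = 3) and 77.1% ± 2.73 in the TVI metastases (SD, n = 3). The sites that could be chosen but were not, 16268 in number, averaged 50.9% ± 0.769, 53.0% ± 0.142 and 55.3% ± 0.264 in the same groups.

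**Figure D1:**
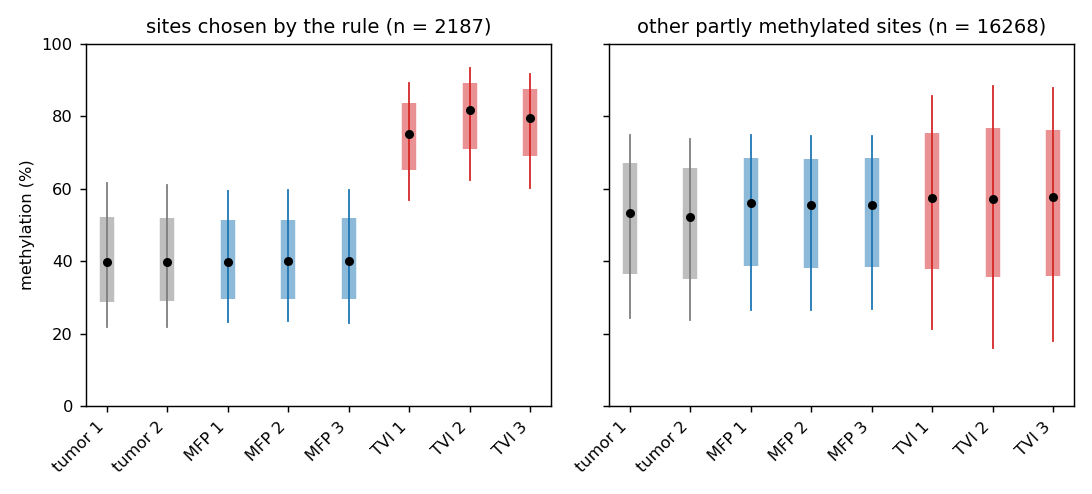
Methylation level in percent (y axis) in each of the 8 samples (x axis) over the chosen sites (left) and over the sites that could be chosen but were not (right); dots mark medians, boxes the middle 50% of sites and lines run from the 10th to the 90th percentile. Over the chosen sites, tumors and MFP metastases have medians from 39.7% to 40.2%, and the TVI metastases lie at 75.2%, 81.7% and 79.6%.

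At a single chosen site the TVI mean was above the MFP mean by a median of 35.0 points, with the middle 80% of sites between 27.3 and 47.3 points and extremes of 21.4 and 65.6. The gap between the nearest samples of both groups had a median of 26.5 points. It reached 30 points at 736 sites (33.7%), 40 points at 170 (7.77%) and 50 points at 19 (0.869%), and it was under 25 points at 879 (40.2%). All 3 TVI metastases were at 80% or more at 728 sites (33.3%). At 202 sites the TVI mean stayed under 60%. The chosen sites just inside the rule, on chromosome 8 at positions 11327717 and 96456054 and on chromosome 11 at 103600280, had gaps of 20 points. The sites just outside, on chromosome 7 at 53129442, chromosome 2 at 172728005 and chromosome 8 at 120100389, had gaps just under the threshold. The chosen site with the lowest MFP mean, 20.04%, lies on chromosome 19 at position 6403801.

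In the tumors, which the rule did not use, the chosen sites lay near the level of the MFP metastases, which it did use. The median difference, MFP metastases minus tumors, was −0.0831 points, with the middle 50% of sites between −3.86 and 3.91, and it was above 0 at 1080 sites (49.4%). Over the sites that could be chosen but were not, the median was 1.88 points and 62.9% were above 0. Over all sites it was 0.389 points and 57.1%. The rule bounded the MFP levels from above. An MFP metastasis left out of the choice averaged 1.06 to 1.16 points above the kept ones, and the tumors 0.202 to 0.340 points. The closeness of tumors and MFP metastases therefore describes the chosen sites. Both tumors lay below every TVI metastasis at 2183 of the 2187 chosen sites (99.8%), against a background of 26.4% of all sites and 49.4% of the sites that were not chosen. They lay below by at least 20 points at 1835 sites (83.9%), against 2.99% of all sites. The rule held the MFP levels below the TVI levels, and these counts are read only beside the background.

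Against the range of the MFP metastases the tumors fell about evenly to both sides. Since the MFP levels were used by the rule, this balance is a description of the chosen sites. Both tumors were below every MFP metastasis at 350 chosen sites (16.0%), against 14.5% of all sites, and above every one at 337 (15.4%), against 8.11% of all sites. Of the sites that could be chosen but were not, 22.5% had both tumors below and 8.58% had both above. At 333 chosen sites (15.2%), against 1.35% of all sites, both tumors lay above every MFP and below every TVI metastasis. The rule itself placed every TVI above every MFP metastasis, so nothing is read from the distance between these shares. At 1211 chosen sites (55.4%) both tumors were within or above the MFP range. The share was near the 55.8% of all sites and above the 44.7% of sites that could be chosen but were not. Both tumors at or above the lowest TVI metastasis occurred at 0 chosen sites, against 48.4% of all sites. On a scale where the MFP mean of a site is 0% and its TVI mean is 100%, the tumor mean had a median of 0.249%, with the middle 50% of sites between −11.2% and 11.02%. It passed 50% at 11 sites.

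**Figure D2:**
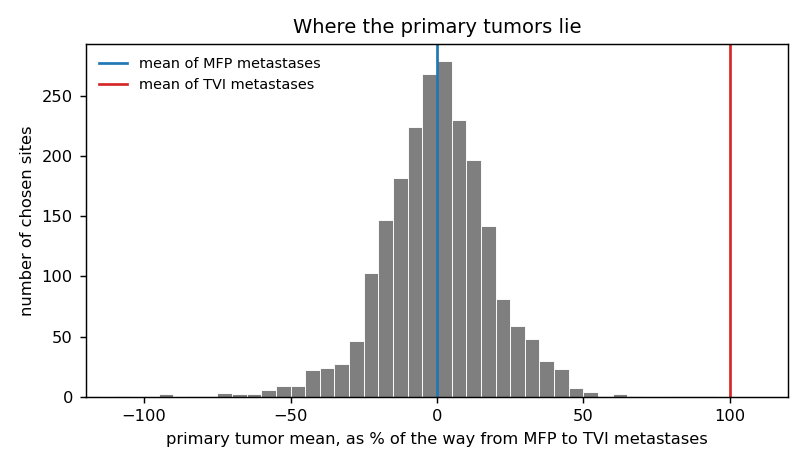
Number of chosen sites (y axis) by the position of the tumor mean between the MFP mean (0%) and the TVI mean (100%) of the same site (x axis, percent). The sites centre on the MFP level, with a median of 0.249%, and 11 sites lie past 50%.

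A moderated test with limma was fitted to all 135914 sites with any variation, with adjusted p-values by Benjamini and Hochberg and a threshold of 0.05. Between TVI metastases and tumors, 2178 of the 2187 chosen sites were higher in the TVI metastases and 0 were lower, against 11.3% higher and 5.24% lower over all sites. The tumors were no part of the rule, but the TVI levels were. The count, and the p-values of the same contrast given below, therefore describe the chosen sites. Between MFP metastases and tumors, 1 chosen site was higher and 1 lower, against 0.0464% of all sites called in either direction (0.0427% higher and 0.00368% lower). At an unadjusted limma p under 0.05 there were 111 higher and 122 lower, against 8390 higher and 3376 lower of all 135914 sites. Of the 16268 sites that could be chosen but were not, 1836 were higher and 461 lower. Higher calls outnumbered lower ones in both of those sets, but not among the chosen sites. Between TVI and MFP metastases, the contrast of the rule, all 2187 were called higher, against 10.4% of all sites, and nothing is read from that count.

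The single chosen site called higher in MFP metastases than in tumors lies on chromosome 2 at position 173085044. Its levels were 16.4% and 15.1% in the tumors, 47.3%, 46.5% and 43.7% in the MFP metastases and 69.5%, 75.8% and 69.4% in the TVI metastases. The 3 groups did not overlap, and the MFP metastases stood between the other two. The difference between MFP metastases and tumors was 30.1 points (SE 4.13, limma adjusted p = 0.044). The site called lower lies on chromosome 5 at position 136387507 and read 88.9% and 89.6% in the tumors, 63.2%, 68.6% and 69.2% in the MFP metastases and 92.3%, 89.3% and 91.8% in the TVI metastases. Here the MFP metastases were below both other groups, by 22.2 points from the tumors (SE 3.15, limma adjusted p = 0.0457), and TVI metastases and tumors differed by 1.90 points (SE 3.15, adjusted p = 0.807). Neither call remained when any of the 8 samples was left out.

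The TVI level was higher at the sites where the tumors were higher. Where the tumors were under 20% (126 sites) the TVI mean was 66.1%. It was 67.7% at 458 sites with tumors between 20% and 30%, 72.5% at 520 sites between 30% and 40%, and 80.7% at 471 sites between 40% and 50%. From 50% to 60% (361 sites) it was 85.7%, and above 60% (251 sites) 90.2%. The fixed gap in the rule ties the TVI level to the MFP level, so this order is a description of the chosen sites.

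At the chosen sites TVI metastasis 1 stood apart from the others of its group. It was the lowest of the 3 at 1482 chosen sites (67.8%), TVI metastasis 3 at 434 (19.8%) and TVI metastasis 2 at 271 (12.4%). The highest MFP metastasis was spread evenly, at 729, 748 and 710 sites for replicates 1, 2 and 3. TVI metastasis 1 was 4.47 points below the mean of the other two over the chosen sites, and its distance from the MFP mean was 88.2% of theirs. The same sample was also nearer to the MFP metastases at 978 sites with the same gap and an MFP mean of at most 20%. There it stood at 47.1%, against 54.7% and 52.4% in TVI metastases 2 and 3, with an MFP mean of 9.94%. At 886 partly methylated sites with the mirrored gap, lower in every TVI metastasis, it stood at 24.1%, against 16.5% and 18.9%, with an MFP mean of 57.6%. All of these sites were taken by a gap between TVI and MFP metastases. Over the sites that could be chosen but were not, TVI metastasis 1 was at 55.6%, against 55.0% and 55.2%. Over all sites it was at 68.7%, against 68.5% and 68.6%, and these means take in sites of both directions. The share of cells of each kind in this sample was not tested.

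Choosing the sites without a metastasis and then reading that metastasis gives levels the choice did not use. The gap is still read against the other group, whose levels the choice did use. For a left-out TVI metastasis, the sites where it met the gap are by construction the 2187 chosen ones. The shares of all sites given beside these counts include many sites that could not meet the rule. Without TVI metastasis 1 the rule took 2883 sites. The left-out sample was above the highest MFP metastasis at 2881 of them, against 35.0% of all sites, and at least 20 points above at 2187 (75.9%), against 2.8% of all sites. Its mean there was 72.7%, and that of the kept TVI metastases was 78.4%. TVI metastasis 2, left out, was at least 20 points above at 94.96% of 2303 sites (3.79% of all sites), and TVI metastasis 3 at 92.2% of 2373 (3.48%). The MFP metastases, left out in turn, were at least 20 points below the lowest TVI metastasis at 85.0% of 2565, 86.8% of 2503 and 87.5% of 2479 sites, against 3.5%, 3.42% and 3.35% of all sites. A left-out MFP metastasis averaged 1.06, 1.09 or 1.16 points above the kept ones at those sites, while the tumors averaged 0.202, 0.295 or 0.340 points above the kept ones. Of the 6 left-out samples, TVI metastasis 1 met the gap at the smallest share of sites.

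The chosen sites lay in groups along the chromosomes. Another chosen site was within 500 bp of 1286 of them (58.8%), while a chosen site was that near to 24.2% of the sites that could be chosen but were not and to 13.2% of all sites. Joining chosen sites at most 500 bp apart gave 204 clusters of 3 or more, which held 830 chosen sites (38.0%), and 901 (41.2%) had no other within that distance. A cluster had a median length of 312 bp and a median of 7 listed sites, and in the median cluster 59.4% of the sites were chosen. Neighbouring CpGs share sequencing reads and DNA molecules, so sites of a cluster are not independent. By the means of their chosen sites, all 204 clusters had both tumors below every TVI metastasis, beside 26.4% of single sites over the whole table. In 42 clusters (20.6%) both tumors were below every MFP metastasis, beside 14.5% of single sites, in 35 (17.2%) above every one, beside 8.11%, and in 127 (62.3%) neither. A cluster mean averages 3 or more sites and is not the same measure as the level of a single site. Nothing is read from the distance between the shares of clusters and of single sites. TVI metastasis 1 was the lowest of the TVI metastases in 163 clusters (79.9%).

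The largest cluster covers chromosome 2 from 27629666 to 27630239, and 13 of its 15 sites were chosen. The means of those sites were 26.6% and 24.1% in the tumors, 39.5%, 45.8% and 44.7% in the MFP metastases and 84.6%, 87.9% and 86.7% in the TVI metastases. It held 4 of the 5 chosen sites where tumors were farthest below the MFP metastases, among them position 27630130 (26.5% and 32.8% in tumors, 63.3%, 65.8% and 59.3% in the MFP and 85.9%, 97.0% and 96.1% in the TVI metastases). The 3 groups did not overlap there, with the tumors lowest and the TVI metastases highest, and the difference between MFP metastases and tumors did not pass the test at that site (33.1 points, SE 4.96, limma adjusted p = 0.0557). None of the 13 sites was called between those groups, against 0.0464% of all sites. All 13 were called between TVI metastases and tumors, against 16.6% of all sites, and the rule had used the TVI levels.

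Another cluster with the tumors lowest lies on chromosome 12 between 8788084 and 8789662, where 12 of 18 sites were chosen. Its means were 24.9% and 27.2% in the tumors, 38.4%, 36.2% and 37.1% in the MFP metastases and 78.6%, 81.0% and 81.5% in the TVI metastases. The cluster on chromosome 7 from 149618329 to 149618577, all 9 of whose sites were chosen, read 20.3% and 21.8%, then 37.5%, 32.8% and 37.7%, then 74.5%, 86.2% and 83.6%. In all of these the tumors did not overlap the MFP metastases.

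Other large clusters had the tumors among or above the MFP metastases. On chromosome 8 from 111346825 to 111346990, all 9 sites were chosen, with means of 31.6% and 27.1% in tumors, 29.1%, 26.3% and 26.3% in the MFP and 61.8%, 63.3% and 65.7% in the TVI metastases. On chromosome 15 from 85733189 to 85735033, 11 of 37 sites were chosen, at 45.4% and 43.3%, then 44.3%, 44.8% and 41.7%, then 78.5%, 83.0% and 79.7%. On chromosome 17 from 6962251 to 6963309, 10 of 31 sites were chosen, at 41.2% and 39.8% in tumors and 35.4%, 34.6% and 33.5% in MFP metastases, with both tumors higher, and at 72.7%, 72.5% and 74.6% in TVI metastases. The last cluster lies 23821 to 24879 bp downstream of the matched start of Ezr, the gene of ezrin, which links actin to the cell membrane.

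**Figure D3:**
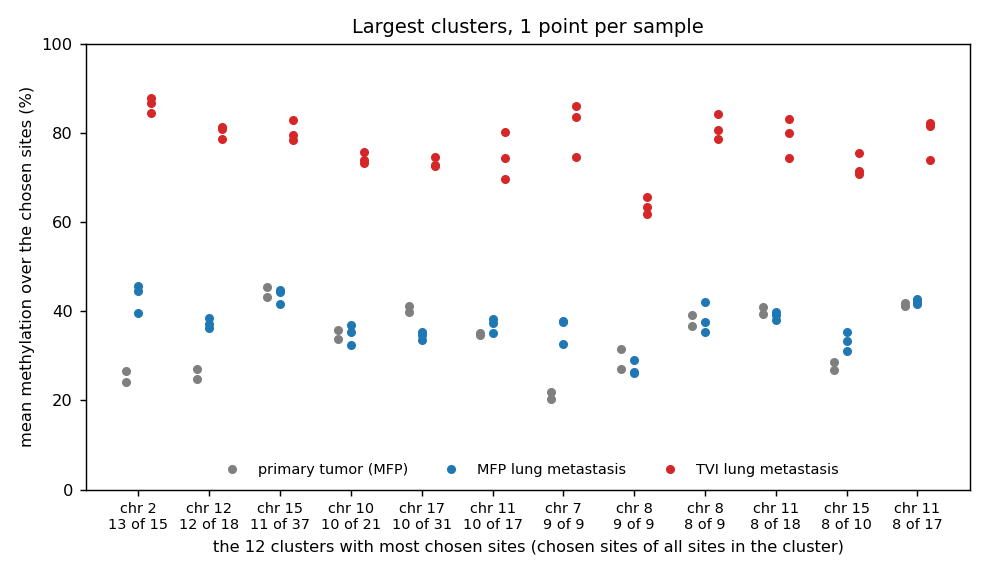
Mean level in percent (y axis) over the chosen sites of the largest clusters in each sample, with the 12 clusters of most chosen sites along the x axis and 1 point per sample, coloured by group. In all 12 clusters the 3 TVI metastases lie above all other samples, while the tumors lie below, among or above the MFP metastases depending on the cluster.

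Joined at 20000 bp, the chosen sites formed 482 stretches. Of these, 47 with 10 or more chosen sites held 896 of them (41.0%). The stretch with the most lies on chromosome 11 from 7033317 to 7077988, where 52 of 314 sites were chosen. Its chosen sites averaged 39.5% in tumors, 39.9% in the MFP and 79.2% in the TVI metastases, and all of its 314 sites averaged 55.8%, 56.5% and 73.3%. A stretch on chromosome 12 from 8781817 to 8817278 held 47 chosen sites of 302, at 35.2%, 41.8% and 82.9%, and the largest single gap of all, 61.3 points at position 8816771. That site read 20.5% and 27.7% in tumors, 20.7%, 22.2% and 23.5% in the MFP and 84.8%, 86.0% and 85.3% in the TVI metastases. The tumors there overlapped the MFP metastases, and TVI metastases were 61.2 points above the tumors (SE 4.00, limma adjusted p = 5.69e-06).

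Stretches were not all of one direction. On chromosome 11 from 103574313 to 103665511, 47 sites were chosen and 22 others had the mirrored gap, lower in every TVI metastasis. Over all chosen sites, 136 (6.22%) had a site with the mirrored gap within 500 bp, against 20.8% of the sites that could be chosen but were not and 9.71% of all sites. The sites that could be chosen but were not include the 886 partly methylated sites with the mirrored gap. Of those, 691 (78.0%) had another site with that gap within 500 bp, which raises the 20.8%. Of the 204 clusters, 1 held a site with the mirrored gap.

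Sites that were not chosen but lay beside chosen ones were also higher in TVI metastases, and the difference was smaller with distance. At 1 to 10 bp the mean TVI level was 16.9 points above the MFP level, and 66.0% of 259 sites were called higher and 0.386% lower. At 11 to 50 bp it was 10.5 points (45.4% of 1801 higher) and at 51 to 100 bp 6.80 points (31.6% of 2224 higher). At 251 to 500 bp it was 2.84 points (18.2% of 6979). At 1001 to 5000 bp it was 0.438 points, with 8.97% of 31535 sites higher and 7.15% lower, against 10.4% higher and 6.53% lower over all sites. Of the sites that could be chosen but were not, 32.0% were higher and 19.5% lower over the whole table. Such sites made up 131 of the 259 at 1 to 10 bp and 4207 of the 31535 at 1001 to 5000 bp. Starting level thus changed with distance too, and the part of each was not tested. Of the 4283 tested sites within 100 bp, 1733 (40.5%) were higher and 139 (3.25%) lower in TVI metastases than in tumors. Over all sites these shares were 11.3% and 5.24%, and over the sites that could be chosen but were not 32.5% and 15.6%. Between MFP metastases and tumors, 4 of the 4283 (0.0934%) were higher and 0 lower in the metastases, against 0.0427% and 0.00368% of all sites. For the sites that could be chosen but were not, those shares were 0.203% and 0.0123%.

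**Figure D4:**
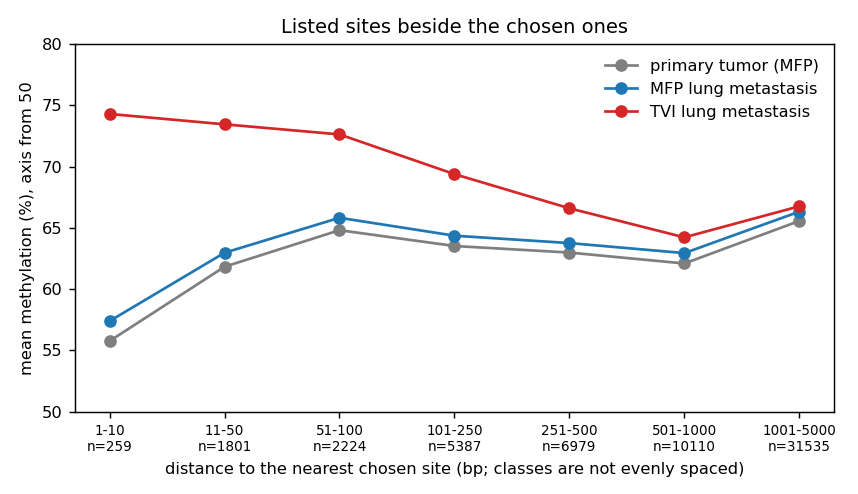
Mean methylation level in percent (y axis, not starting at 0) of sites that were not chosen, by distance in bp to the nearest chosen site (x axis), for tumors, MFP metastases and TVI metastases. TVI metastases stand 16.9 points above MFP metastases at 1 to 10 bp and 0.438 points above them at 1001 to 5000 bp.

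The chosen sites lay in sequence with somewhat fewer listed sites than the sites that could be chosen but were not. The median number of other sites within 250 bp was 6 for the chosen sites, 7 for the others and 8 for all sites. At least 20 other sites lay within 250 bp of 2.01%, 6.36% and 11.003% of them. A site at or below 10% in the tumors lay within 250 bp of 41.2% of the chosen sites, 38.6% of the others and 32.1% of all sites. A site at or above 80% lay within that distance of 68.7%, 72.7% and 75.7%. Both kinds were present at 24.3%, 22.8% and 11.1%. The share with both kinds was thus above that of all sites for the chosen sites and for the other partly methylated sites alike.

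Chosen sites were found on 20 of 20 chromosomes. Chromosome 11 held 407 (18.6% of them), and it also held 17.8% of all sites and 18.5% of those that could be chosen. Per 100 sites that could be chosen, chromosome 12 had the most, 17.7, and chromosome 18 the fewest, 5.56 (2 of 36 sites).

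Within 5000 bp of a placed gene start lay 271 chosen sites (12.4%), near 100 of the 220 genes. With starts of the first matching step only, they numbered 157. The share with all starts was 15.4% of the sites that could be chosen but were not, 15.1% of all sites and 27.4% of the 886 partly methylated sites with the mirrored gap. From 1000 bp before to 500 bp after a start lay 76 chosen sites (3.48%, against 4.94% of the sites that could be chosen but were not and 5.96% of all sites). In the window of 250 bp before to 50 bp after a start lay 18 (0.823%, against 1.21% and 2.15%), at 11 genes. Distances below are in bp along the gene from its placed start, with a minus for the side before it.

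Tjp3, the gene of the tight junction protein ZO-3, had chosen sites on both sides of its start. They numbered 11 from −295 to 1413, and 10 of them formed the fourth largest cluster. Their means were 35.8% and 34.7% in the tumors, 35.7%, 33.8% and 37.9% in the MFP metastases and 72.8%, 75.9% and 73.6% in the TVI metastases. Tumors and MFP metastases overlapped, and all TVI metastases were higher by more than 30 points. All 11 were called higher in TVI metastases than in tumors by limma, against 11.3% of all sites. At the site at 719 the difference was 41.1 points (SE 3.64, adjusted p = 2.39e-05).

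Sites around the Tjp3 start that were not chosen were often higher in TVI metastases as well. Within 2500 bp of the start 55 sites are listed. Of the 44 that were not chosen, 26 were called higher and 1 lower in TVI than in MFP metastases by limma, against 10.4% higher and 6.53% lower over all sites. Over the whole table, 32.0% of the sites that could be chosen but were not were higher. Among sites within 100 bp of a chosen one that were not chosen, 39.5% were. Tjp3 was picked for its chosen sites, and neighbouring CpGs share sequencing reads, so the 44 are not independent of the chosen ones. The mean over all 55 was 31.5% ± 0.981 in tumors (SD, n = 2), 31.1% ± 1.74 in the MFP (SD, n = 3) and 50.4% ± 1.59 in the TVI metastases (SD, n = 3). In the printed window, the chosen CpG at −161 read 48.2% and 56.5% in tumors, 46.2%, 61.7% and 50.5% in the MFP and 88.5%, 84.6% and 88.2% in the TVI metastases. The CpG at −37, with an MFP mean too low for the rule, read 17.5% and 5.56%, then 18.4%, 10.3% and 11.5%, then 49.1%, 63.2% and 60%. The CpGs at −198, −184 and −182 were between 78.2% and 94.2% in all 8 samples. In tumors and MFP metastases, levels thus went from high to low within this window.

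**Figure D5:**
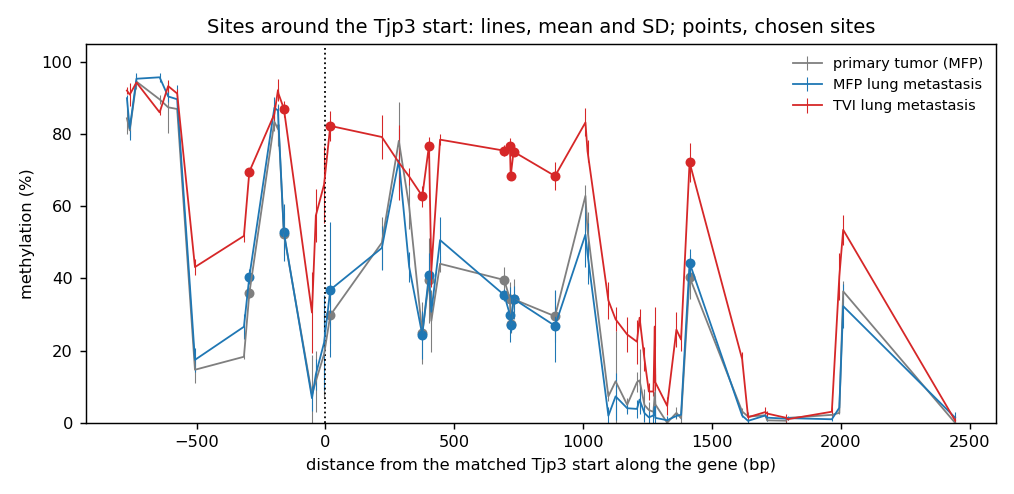
Methylation level in percent (y axis) at each listed site around the placed start of Tjp3 (x axis, bp along the gene from the start), as group means of 2 tumors, 3 MFP metastases and 3 TVI metastases with SD bars, and with points at the chosen sites. Of the 55 sites, 49 have a TVI mean above the MFP mean, and the sites at −198 to −182 are high in all groups.

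In the printed window of Hoxa10, a homeobox transcription factor of the posterior body axis, 3 of 7 CpGs were chosen. At −210 the tumors were at 27.1% and 32.5%, the MFP metastases at 24.2%, 30.5% and 29.8% and the TVI metastases at 68.8%, 93.2% and 86.1%. At −212, on the neighbouring CpG, the levels were 23.9% and 30.1%, then 19.2%, 27.1% and 28.8%, then 56.2%, 87.4% and 75.4%. TVI metastasis 1 was the lowest of its group at both and also at −86. At −210 the TVI metastases were 52.9 points above the tumors (SE 6.39, limma adjusted p = 0.000162). Of the CpGs between them that were not chosen, those at −136 and −96 were between 70.5% and 85.9% in tumors and MFP metastases. The CpG at −192 read 31.3% and 29.2% in tumors, 43.7%, 39.0% and 39.1% in the MFP and 61.3%, 68.8% and 68.2% in the TVI metastases.

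Tubgcp6, a component of the gamma-tubulin complex that nucleates microtubules, showed the chosen sites at the edge of an unmethylated start. The CpGs at −247 and −237 were between 86.2% and 98.1% in all samples. Those from −69 to 39 were at or below 6.19% in all samples. The chosen CpGs at −225, −216 and −205 lay between, with the CpG at −211, which was not chosen. At −216 the levels were 37.4% and 28.6% in the tumors, 32.5%, 37.5% and 33.6% in the MFP metastases and 62.7%, 72.5% and 63.5% in the TVI metastases, 33.3 points above the tumors (SE 4.68, limma adjusted p = 0.00045). At −196, the next CpG towards the start, they were 9.09% and 10.3%, then 12.9%, 12.9% and 14.2%, then 17.7%, 23.2% and 19.5%. The TVI metastases did not overlap the other samples there either, but neither the MFP mean nor the gap met the rule. Up to 5000 bp from the Tubgcp6 start, 3 other sites had the mirrored gap.

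Cd63, the gene of a tetraspanin of late endosomes and exosomes, had chosen CpGs at −102 and −88. At −102 the tumors read 23.3% and 17.0%, the MFP metastases 22.2%, 19.8% and 20.1% and the TVI metastases 46.1%, 54.1% and 55.4%. At −88 they read 30.5% and 31.7%, then 40.8%, 34.4% and 33.3%, then 64.2%, 63.4% and 66.5%. TVI metastases were above the tumors by 31.7 points at −102 (SE 3.61, limma adjusted p = 0.000111) and by 33.6 points at −88 (SE 4.05, adjusted p = 0.000158). As at Tubgcp6, CpGs farther before the start, from −231 to −207, were high in every sample, between 77.2% and 96.4%. The mirrored gap was present at 6 other sites within 5000 bp of the Cd63 start.

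Single chosen sites in the same window lay at other genes. At Ddr1, a receptor tyrosine kinase for collagen, the site at 5 read 13.0% and 16.8% in tumors, 32.7%, 27.8% and 29.7% in the MFP and 56.4%, 62.1% and 67.7% in the TVI metastases. The 3 groups did not overlap, and MFP metastases and tumors differed by 15.2 points (SE 4.04, limma adjusted p = 0.252). At Acta1, skeletal muscle actin, the site at 32 had the reverse order of tumors and MFP metastases, with 59.8% and 60.4%, then 50.9%, 45.6% and 52.5%, then 79.8%, 83.2% and 81.7%. Within 5000 bp of that start 2 other sites had the mirrored gap, so levels there went both ways. The nearby site at position 126418621 was lower in TVI metastases, with 31.3% and 35.2%, then 44.1%, 46.3% and 37.9%, then 14.3%, 9.38% and 10.1%. At Tnp2, a transition protein of sperm chromatin, the site at −43 read 26.4% and 30.1%, then 27.0%, 35.8% and 38.8%, then 68.8%, 77.2% and 76.2%, and at F10, coagulation factor X, the site at −134 read 46.9% and 53.5%, then 60.6%, 61.5% and 59.9%, then 88.3%, 85.4% and 85.2%. At all 18 chosen sites of the windows TVI metastases were called higher than tumors by limma, against 11.3% of all sites. The limma adjusted p-values ran from 1.94e-05 to 0.00456, and the rule had used the TVI levels.

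Groups of chosen sites also lay within 5000 bp of other starts, and the genes named here were picked after their values were seen. Cdh15, M-cadherin of muscle, had 12 between −2642 and 4921, with means of 43.0% and 45.8% in tumors, 45.8%, 44.2% and 43.9% in the MFP and 78.1%, 81.0% and 80.6% in the TVI metastases. Cldn3, a claudin of epithelial tight junctions, had 5 between −399 and 138, at higher levels in every group. Its tumors were at 72.2% and 76.5%, its MFP metastases at 67.6%, 64.5% and 68.5% and its TVI metastases at 90.9%, 94.1% and 96.9%. Both tumors of Cldn3 were above every MFP metastasis, and below every TVI metastasis.

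Ezr had 5 chosen sites upstream, from −1368 to −1123, at 34.8% and 38.8% in tumors, 39.0%, 48.8% and 45.3% in the MFP and 82.1%, 83.5% and 82.5% in the TVI metastases. The tumors were below every MFP metastasis there, the opposite order to the cluster 23821 bp downstream of the same start. Tuba4a, an alpha-tubulin, had 6 from −1065 to −687, at 31.4% in both tumors, 33.7%, 31.8% and 32.8% in the MFP and 69.3%, 73.0% and 73.6% in the TVI metastases. Rhof, a small GTPase of filopodia, had 9 from 654 to 3857, with tumors at 49.2% and 55.6%, MFP metastases at 45.2%, 43.7% and 45.7% and TVI metastases at 79.7%, 82.7% and 82.2%.

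Rasgrp2, an exchange factor for the GTPase Rap, had the most chosen sites of any placed gene, 13 from 377 to 3615. Their means were 40.1% and 39.4% in tumors, 42.9%, 39.3% and 42.1% in the MFP and 72.3%, 80.3% and 77.2% in the TVI metastases. Within 5000 bp of the same start 13 other sites had the mirrored gap, so levels there went both ways. Srebf1, the sterol-regulated transcription factor of lipid synthesis, had 10 from −3671 to −1083 and none with the mirrored gap. They stood at 33.3% and 28.7% in tumors, 29.7%, 26.7% and 28.8% in the MFP and 62.1%, 68.3% and 65.2% in the TVI metastases. Stat5a, a transcription factor of prolactin signalling in the mammary gland, had 3, at 49.8% and 52.7%, then 49.95%, 49.7% and 52.0%, then 83.9%, 90.4% and 88.1%. Near its start 2 other sites had the mirrored gap.

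The gene lists for pathways could be read only where a start was placed. Of 20 Wnt genes 1 was placed, Fzd1, a Wnt receptor, and it had 5 chosen sites from −604 to −339, at 42.6% and 38.0% in tumors, 40.5%, 45.3% and 42.2% in the MFP and 75.7%, 77.4% and 77.9% in the TVI metastases. Of 20 inflammation genes 3 were placed, and all had chosen sites: Irf8, Socs1 and Nfkb2. The site of Irf8, a transcription factor of myeloid cells, lay at −4987 and read 37.4% and 29.5%, then 36.6%, 33.3% and 36.7%, then 80.8%, 87.0% and 79.1%. It was the only chosen site within 5000 bp of the Irf8 start, where 8 others had the mirrored gap. At Socs1, an inhibitor of cytokine signalling, 1 site was chosen and 18 had the mirrored gap. Of 20 adhesion genes 2 were placed, and Cldn3 had chosen sites while Cldn7 had none. Of 20 Notch genes Dll4 was placed, with no chosen site within 5000 bp, and of 20 TGF-beta and BMP genes 0 were placed. Over all placed genes, 100 of 220 had a chosen site within 5000 bp, and nothing particular to a list can be read from counts this small.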

How the data were processed

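DNA was bisulfite-converted, per the labels' protocols. Trimmomatic, Bismark and the build mm10 are named in the submitters' processing notes. No source used here gives the selection of positions or a coverage filter. The authors deposited beta values, the fraction of methylated calls per site, per the file headers, for 8 samples, with 0 columns of other samples. Groups come from the titles. The chosen sites, gene lists and marker lists were picked with earlier results of these data known.

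Levels were compared by limma 3.58.1, run in R 4.3.3 (1 mean per group over 8 samples, variance trend, two-sided, Benjamini-Hochberg over 135914 sites) and differences are in percentage points. The fit and the matching below were tested on simulated data. Positions are printed as deposited, in a build that was not settled.

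Gene starts were placed with Python 3.11.15, a step added after the data were seen. On the labelled chromosome, an offset had to match at least 8 CpGs and 50% of those in a RefSeq promoter (250 bases before to 50 after the start, GRCm38.p6), explain 90% of the listed sites in that window and leave any other offset at 70% of it or less. A further 59 starts matched at least 4 CpGs at the offset of a neighbouring placed start, beside 185 from the first step. These limits were chosen after an exploratory look. Matched against the next chromosome instead, 0 starts were placed in the first step. No coordinate was converted.

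Sites named by position are the 10 with the largest gap, the 12 largest clusters, the 5 with the largest tumor difference in each direction, those called between MFP metastases and tumors and those at the edge of the rule, given in part. Genes and stretches outside that rule were chosen after their values were seen.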

Additional observations from a re-analysis of the deposited data

Results flagged for a closer look

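At some named sites both tumors lay above every MFP metastasis and below every TVI metastasis, so that the metastases of each label were on opposite sides of the tumors. Over all chosen sites this order occurred at 333 (15.2%), against 1.35% of all sites. It was not tested as a difference, since the rule chose the sites on the contrast between the metastases. On chromosome 11 the tumor mean was above the MFP mean by 13.2 points at position 119654453, by 10.2 points at 119654348 and by 4.98 points at 68256930. The widest such differences were on chromosome 9, with 24.2 points at position 50693134 and 22.5 points at 50693664. At the second of these the tumors themselves were far apart, at 60.6% and 28.8%. At the site 32 bp after the start of Acta1 the difference was 10.4 points. MFP metastases and tumors did not pass the limma test at any of these sites, with adjusted p-values from 0.136 to 0.858.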

How the results depend on the processing

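A gap of 15 points gave 3525 sites and one of 25 points 1308. Leaving out a metastasis gave 2303 to 2883, and quantile-normalized values gave 1489, of which 1463 were among the 2187. The count called higher or lower in MFP metastases than in tumors, 2, became 0 with only those groups fitted, on a logit scale and with quantile-normalized values, 11 without the variance trend and 8 with sites of intermediate mean. Leaving out any sample gave 0. Replicate numbers are shared between groups, and same-numbered samples did not deviate together (correlations from −0.00370 to 0.0172). With the replicate block these counts were 0, then 2156 for TVI metastases against tumors and 2187 for TVI against MFP metastases. The count for TVI metastases against tumors ran from 2079 to 2181 over all settings.

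Clusters of at least 2 sites numbered 432 and of at least 5 sites 56. The median number of other sites was 3 within 100 bp and 12 within 500 bp. Over sites beside the chosen ones, TVI metastases were 8.96 points above MFP metastases, 11.3 within 50 bp, 6.77 within 250 bp and 6.85 with quantile-normalized values. The tumor mean over the chosen sites was 39.9% as a median, 41.3% with 1 value per cluster and 44.2% with quantile-normalized values, and the MFP mean 39.97% as a median and 42.1% with quantile-normalized values. Chosen sites within 5000 bp of a placed start numbered 157 with starts of the first step only, and 157 within 2000 bp, both added after seeing the data. The depth of each value is unknown, so no interval or detection limit could be given, and the tumor group holds 2 samples.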

Other observations

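Beyond the genes described above, groups of chosen sites lay near the starts of Col18a1, the collagen whose fragment is endostatin, with 9 sites from −1491 to 3685, and of Ptpn7, a tyrosine phosphatase of blood cells, with 6 from −236 to 4660. At Col18a1 the tumors read 40.7% and 43.6%, the MFP metastases 44.9%, 44.3% and 44.4% and the TVI metastases 77.8%, 79.9% and 79.7%. At Ptpn7 they read 38.2% and 39.3%, then 38.9%, 40.5% and 38.7%, then 76.998%, 85.7% and 80.3%. The sites of Ptpn7 included one of the 10 with the largest gap, at 4193, with 29.8% and 26.5%, then 30.7%, 31.9% and 28.1%, then 84.6%, 94.7% and 92.5%. Upstream of Fos, an immediate early transcription factor, 3 sites from −2071 to −2008 averaged 35.6% ± 1.03 in tumors (SD, n = 2), 36.8% ± 1.38 in the MFP (SD, n = 3) and 67.9% ± 1.91 in the TVI metastases (SD, n = 3). Upstream of Ksr1, a scaffold of the Raf and MEK kinases, 3 sites from −4646 to −4560 had both tumors above the MFP metastases, at 43.7% and 35.7% against 24.5%, 29.2% and 27.4%, and TVI metastases at 57.5%, 60.9% and 55.8%.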
